A study of Homo sapiens with 6 samples.

Results

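Fragments of 9 genes that give thyroid follicular cells their identity or carry out hormone synthesis were followed in SW1736, an established cell line from a human anaplastic thyroid cancer. PAX8, NKX2-1, FOXE1 and HHEX encode transcription factors, TG, SLC5A5 and DUOX1 encode proteins of hormone synthesis, TSHR encodes the receptor for thyroid stimulating hormone (TSH), and DIO2 encodes a deiodinase. They were taken by gene symbol from the deposited table of protein-coding transcripts, in which each of the 9 has 1 row among 20288. All 9 rows held at least 1 count in at least 4 of the 6 libraries, and 5 of them did so in every library. The normoxia group was grown at 21% O2 and the hypoxia group at 2% O2, each for 72 h and each with 3 small RNA libraries. All 6 libraries are of the same line, in RPMI-1640 medium with fetal bovine serum depleted of exosomes, and the methods list no TSH supplement. The labels number the libraries within a group without saying whether they are separate cultures, so every p-value reflects variation among libraries only, which may be technical. Because the libraries were built from small RNA, a count for a gene here is a short fragment placed on its transcript, and neither full-length mRNA nor protein was measured. As in any bulk sample, fewer expressing cells and less RNA per cell cannot be told apart.

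Thyroid follicular cells are marked by the joint presence of PAX8, NKX2-1, FOXE1 and HHEX, each of which is also used in other organs. The factors act together on genes such as TG, whose product thyroglobulin is the scaffold on which hormone is made. Iodide enters the cell through the symporter SLC5A5 and is attached to thyroglobulin with the help of hydrogen peroxide made by the DUOX oxidases. TSH drives the whole pathway through its receptor, mainly by way of cyclic AMP, and the deiodinase DIO2 turns thyroxine into the more active triiodothyronine. Loss of these functions is a known feature of anaplastic thyroid cancer, whose cells usually no longer take up iodide.

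PAX8, HHEX and FOXE1 gave clear counts in every SW1736 library, NKX2-1 and DIO2 gave low ones, and TG, SLC5A5, TSHR and DUOX1 gave 0 to 10 counts each per library. Of the 9 genes, 4 had enough counts for a test of hypoxia against normoxia, and 0 of the 4 were called (edgeR adjusted p under 0.05, as for 0.758% of all protein-coding transcripts tested).

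The libraries held 1469151 to 1781753 counts over miRNAs and protein-coding transcripts together, of which 1257495 to 1509013 were on protein-coding transcripts. Levels are given as normalized CPM, counts per 1000000 counts of a library's TMM-scaled size, and at this depth 3 counts correspond to 1.73 to 2.08 CPM. Of the 11082 protein-coding transcripts that passed a filter on low counts, 66 were higher and 18 lower in hypoxia by edgeR at an adjusted p under 0.05. Of the hypoxia markers, CA9, NDRG1, BNIP3, PGK1 and LDHA rose, and VEGFA, at a log2 value of 0.93, did not pass (edgeR adjusted p = 0.131). VEGFA did pass in a fit without the robust prior (edgeR adjusted p = 3.67e-04), and the paper's supplement lists it among the changed transcripts. The other 3 of the 9 listed markers were too low to test, with 11, 9 and 6 counts in normoxia and 12, 6 and 4 in hypoxia for EGLN3, 4, 8 and 8 and then 8, 3 and 3 for ADM, and 1, 4 and 5 and then 11, 6 and 2 for ANKRD37. No library stood apart, with correlations of 0.954 to 0.966 across genes over the 15 pairs of libraries.

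The starts of 4 of these genes are shown first, those of the 3 factors with the most fragments and that of DIO2, because they show where letters recognized by hypoxia-inducible factors (HIF) or by cyclic AMP signalling occur among the genes compared. Each is the 250 bases before a RefSeq start site in GRCh38.p14, written along the gene's own strand. RefSeq promoter windows were searched for 8 of the 9 genes, and TG was left out of this search. Capitals mark a match to GCGTG or ACGTG, the core letters of the hypoxia response element bound by HIF, or to TGACGTCA, the cAMP response element, each searched on both strands.
PAX8, chr2:113278922-113279171, minus strand: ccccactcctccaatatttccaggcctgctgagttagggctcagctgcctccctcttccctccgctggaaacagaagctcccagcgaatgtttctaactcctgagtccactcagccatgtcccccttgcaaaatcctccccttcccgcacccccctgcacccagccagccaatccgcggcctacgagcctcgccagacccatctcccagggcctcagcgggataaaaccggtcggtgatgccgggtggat
HHEX, chr10:92689705-92689954, plus strand: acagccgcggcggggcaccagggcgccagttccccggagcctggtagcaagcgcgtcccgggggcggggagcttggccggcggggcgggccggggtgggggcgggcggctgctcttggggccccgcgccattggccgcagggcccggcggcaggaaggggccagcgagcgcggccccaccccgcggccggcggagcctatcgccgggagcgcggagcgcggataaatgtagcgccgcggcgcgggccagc
FOXE1, chr9:97852976-97853225, plus strand: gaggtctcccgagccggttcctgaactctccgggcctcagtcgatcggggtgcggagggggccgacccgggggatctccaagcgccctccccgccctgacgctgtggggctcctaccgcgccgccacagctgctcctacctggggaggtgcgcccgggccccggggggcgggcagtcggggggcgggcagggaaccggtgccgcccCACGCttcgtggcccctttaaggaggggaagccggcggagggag
DIO2, chr14:80212179-80212428, minus strand: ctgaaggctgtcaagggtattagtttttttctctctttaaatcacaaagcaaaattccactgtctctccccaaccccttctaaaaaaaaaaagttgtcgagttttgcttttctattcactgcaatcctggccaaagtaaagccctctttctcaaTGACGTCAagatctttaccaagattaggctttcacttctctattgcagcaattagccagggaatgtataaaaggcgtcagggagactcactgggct

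FOXE1 held 1 GCGTG, on the strand opposite to the gene and therefore printed as its reverse complement, with its first base 44 bases before the start. GCGTG also lay 193 bases before a start of NKX2-1 and 196 bases before a start of TSHR, in windows not printed. Those starts lie 917 bases (NKX2-1) and 578 bases (TSHR) from the start of the counted transcript, which may be a different one. The other NKX2-1 window held neither core. The windows of PAX8, HHEX, SLC5A5, DIO2 and DUOX1 held neither core. In all, 3 of the 8 genes had a core, in 3 of the 10 windows searched. A core was present in 43.2% of 35116 RefSeq promoters of the same length (18.5% for ACGTG and 32.2% for GCGTG). Among the windows searched, only the printed DIO2 window held a full TGACGTCA, 96 bases before its start. The sequence was found in 1.65% of the promoters, and the other DIO2 window, not printed, did not hold it. The start of the printed window lies 18876 bases from the start of the DIO2 transcript in the count table. The fragments and the window therefore need not belong to the same transcript. These matches describe letters in a window and are not binding sites.

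PAX8, the paired box factor required for the follicular lineage, was the highest of the 9 genes. Its row (ENSG00000125618.16) held 208, 170 and 224 counts in replicates 1, 2 and 3 of normoxia and 254, 261 and 190 in those of hypoxia. The libraries of both groups lay within 109 to 156 normalized CPM and the groups overlapped, with hypoxia replicate 3 below 2 of the normoxic libraries. Normoxic libraries averaged 129 ± 17.3 normalized CPM and hypoxic ones 146 ± 12.4 (SD, n = 3 per group; two-sided exact permutation, p = 0.3, where 0.1 is the smallest p that 3 against 3 allow). The log2 fold change was 0.18 (standard error 0.123, edgeR adjusted p = 0.652), with a 95% interval of -0.07 to 0.43, or 0.956-fold to 1.35-fold. In GRCh38 PAX8 is a minus strand gene of chromosome 2 (113215997 to 113278921), and the counted transcript has 12 exons and 4152 bases, of which 32.5% are coding. Exons of the long non-coding gene PAX8-AS1 overlap 12.2% of that transcript on the other strand, and the sources used here do not say whether counting used strand.

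HHEX, a homeobox factor of early thyroid and liver development, was also present in all 6 libraries. Its row (ENSG00000152804.10) held 55, 45 and 35 counts in normoxia and 63, 47 and 47 in hypoxia. The highest library was hypoxic and the lowest normoxic, but the ranges overlapped. Normoxic libraries averaged 28.9 ± 6.70 normalized CPM and hypoxic ones 32.8 ± 5.76 (SD, n = 3 per group; two-sided exact permutation, p = 0.5). The log2 fold change was 0.18 (standard error 0.223, edgeR adjusted p = 0.847), with a 95% interval of 0.828-fold to 1.55-fold. HHEX lies on the plus strand of chromosome 10 from 92689955 to 92695647, with 4 exons in the counted transcript of 1727 bases.

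FOXE1, a forkhead factor needed for the thyroid to reach its place in the neck, was the only one of the 4 tested genes with a fold change below 0. Its row (ENSG00000178919.8) held 53, 32 and 59 counts in normoxia and 53, 42 and 28 in hypoxia. Normoxia replicate 2 and hypoxia replicate 3 were low and the groups overlapped. Normoxic libraries averaged 30.8 ± 8.99 normalized CPM and hypoxic ones 25.4 ± 6.59 (SD, n = 3 per group; two-sided exact permutation, p = 0.4). The log2 fold change was -0.27 (standard error 0.242, edgeR adjusted p = 0.757), with a 95% interval of 0.590-fold to 1.17-fold. The gene is a single exon of 3462 bases as counted, on the plus strand of chromosome 9 from 97853226 to 97856717.

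NKX2-1, a homeobox factor of thyroid, lung and forebrain, was detected in every library but only at a low level. Its row (ENSG00000136352.17) held 4, 8 and 8 counts in normoxia and 5, 11 and 7 in hypoxia, too few for the filter. Normoxic libraries averaged 4.27 ± 1.45 normalized CPM and hypoxic ones 4.76 ± 1.64 (SD, n = 3 per group; two-sided exact permutation, p = 0.7). With 20 counts in the normoxia group and 23 in the hypoxia group, the ratio after scaling was 1.12 (95% exact counting interval 0.588 to 2.15). It was 0.937 with normoxia replicate 1 left out and 0.909 with hypoxia replicate 2 left out. NKX2-1 is a minus strand gene of chromosome 14 (36516392 to 36521149). Exons of SFTA3, a neighbouring gene on the same strand, overlap 37.9% of the counted transcript and its own row held 2 to 8 counts per library, so the split of fragments between the 2 genes is uncertain.

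**Figure D1:**
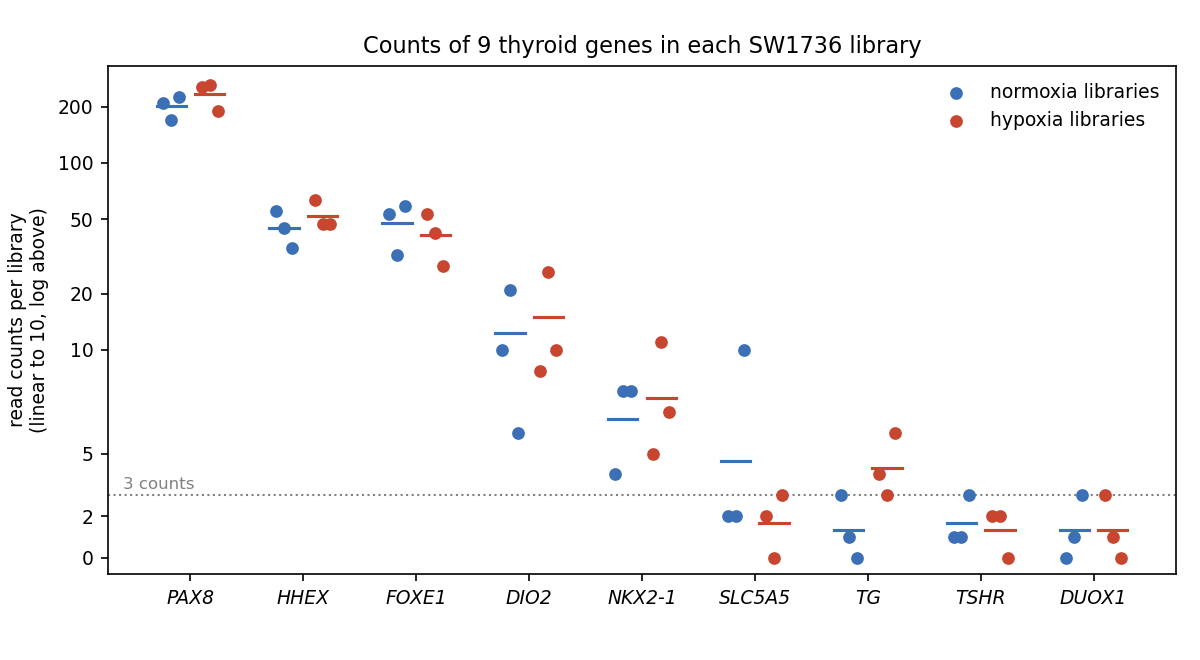
Read counts (linear to 10, log above) of the 9 genes in each of the 3 normoxic (blue) and 3 hypoxic (red) libraries, with a bar at each group's mean count and a dotted line at 3 counts. PAX8 had 170 to 261 counts per library, while TG, TSHR and DUOX1 stayed at 0 to 6, and blue and red points overlap for every gene.

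TG, the scaffold protein of hormone synthesis and in the thyroid one of the most abundant products, was close to the limit of detection. Its row (ENSG00000042832.11) held 3, 1 and 0 counts in normoxia and 4, 3 and 6 in hypoxia. Hypoxia replicate 3 was the highest library and normoxia replicate 3 was at 0, and the ranges overlapped between normoxia replicate 1 and hypoxia replicate 2. Normoxic libraries averaged 0.862 ± 0.990 normalized CPM and hypoxic ones 2.78 ± 1.25 (SD, n = 3 per group; two-sided exact permutation, p = 0.2). With 13 hypoxic and 4 normoxic counts, the ratio of hypoxia to normoxia was 3.16, and its 95% exact counting interval of 0.977 to 13.3 takes in 1. The ratio was 2.09 with normoxia replicate 3 left out and 8.47 with normoxia replicate 1 left out. TG lies on chromosome 8 from 132866958 to 133134903, and the counted transcript of 8450 bases is the longest of the 9, so its few counts are the more sparse per base.

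SLC5A5, the sodium iodide symporter on which radioiodine treatment depends, was likewise at a few counts. Its row (ENSG00000105641.3) held 2, 2 and 10 counts in normoxia and 2, 0 and 3 in hypoxia. Normoxia replicate 3 alone was above 3 counts, and the other 5 libraries were at 0 to 3. Normoxic libraries averaged 2.98 ± 2.92 normalized CPM and hypoxic ones 1.10 ± 1.05 (SD, n = 3 per group; two-sided exact permutation, p = 0.4). The ratio of hypoxia to normoxia was 0.347 (95% exact counting interval 0.0979 to 1.02) and 0.805 without normoxia replicate 3. It was 0.541 without hypoxia replicate 2 and 0.199 without hypoxia replicate 3. SLC5A5 lies on the plus strand of chromosome 19 from 17871945 to 17895174.

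DUOX1, an oxidase that makes hydrogen peroxide at the follicular lumen, was the lowest of the 9 genes per base of transcript. Its row (ENSG00000137857.17) held 0, 1 and 3 counts in normoxia and 3, 1 and 0 in hypoxia. Normoxic libraries averaged 0.849 ± 0.969 normalized CPM and hypoxic ones 0.805 ± 0.940 (SD, n = 3 per group; two-sided exact permutation, p = 0.8). Each group had 4 counts in all, a ratio of 0.973 (95% exact counting interval 0.181 to 5.22), so no difference was detectable at this depth. The ratio was 0.367 without hypoxia replicate 1 and 2.58 without normoxia replicate 3. DUOX1 lies on the plus strand of chromosome 15 from 45129933 to 45165576.

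TSHR, the receptor through which TSH acts on follicular cells, held 1, 1 and 3 counts in normoxia and 2, 2 and 0 in hypoxia (ENSG00000165409.17). No library was above 3 counts, and normoxic libraries averaged 1.07 ± 0.727 normalized CPM against 0.793 ± 0.688 for hypoxic ones (SD, n = 3 per group; two-sided exact permutation, p = 0.6). The 5 normoxic and 4 hypoxic counts gave a ratio of 0.778 (95% exact counting interval 0.154 to 3.62), and between 0.588 and 1.29 with 1 library left out. TSHR lies on the plus strand of chromosome 14 from 80954989 to 81146306.

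DIO2, which activates thyroid hormone within cells, varied more between replicates than between oxygen levels. Its row (ENSG00000211448.11) held 10, 21 and 6 counts in normoxia and 9, 26 and 10 in hypoxia. Replicate 2 was the highest library in both groups, at 13.5 and 14.99 normalized CPM, while the other libraries lay at 3.81 to 6.95. Normoxic libraries averaged 7.93 ± 5.003 normalized CPM and hypoxic ones 9.15 ± 5.11 (SD, n = 3 per group; two-sided exact permutation, p = 0.6). The log2 fold change was 0.23 (standard error 0.440, edgeR adjusted p = 0.909) with a 95% interval of 0.629-fold to 2.18-fold, and it was -0.11 without normoxia replicate 3 and -0.35 without hypoxia replicate 2. DIO2 is a minus strand gene of chromosome 14 (80197526 to 80387757), and 12.9% of its counted transcript of 6367 bases is coding.

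Across the 4 tested genes, edgeR called 0. DESeq2, which gave an adjusted p for PAX8 and HHEX alone, and limma-voom also called 0 of them, and at an unadjusted p under 0.05 the count was 0, where 10.3% of all transcripts tested passed, as the lowest unadjusted p was 0.144 for PAX8 (edgeR). The groups overlapped in all 9 genes. Among the transcripts tested 15.3% did not overlap, a share that applies to the 4 tested genes alone, as the others had too few counts. The log2 fold changes of the 4 tested genes ran from -0.27 to 0.23, and the median over all transcripts tested was -0.01. The hypoxia markers that rose had log2 fold changes of 0.72 to 3.67. The interval of PAX8 ends at 0.43, below each of those fold changes, while that of DIO2 reaches 1.12.

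**Figure D2:**
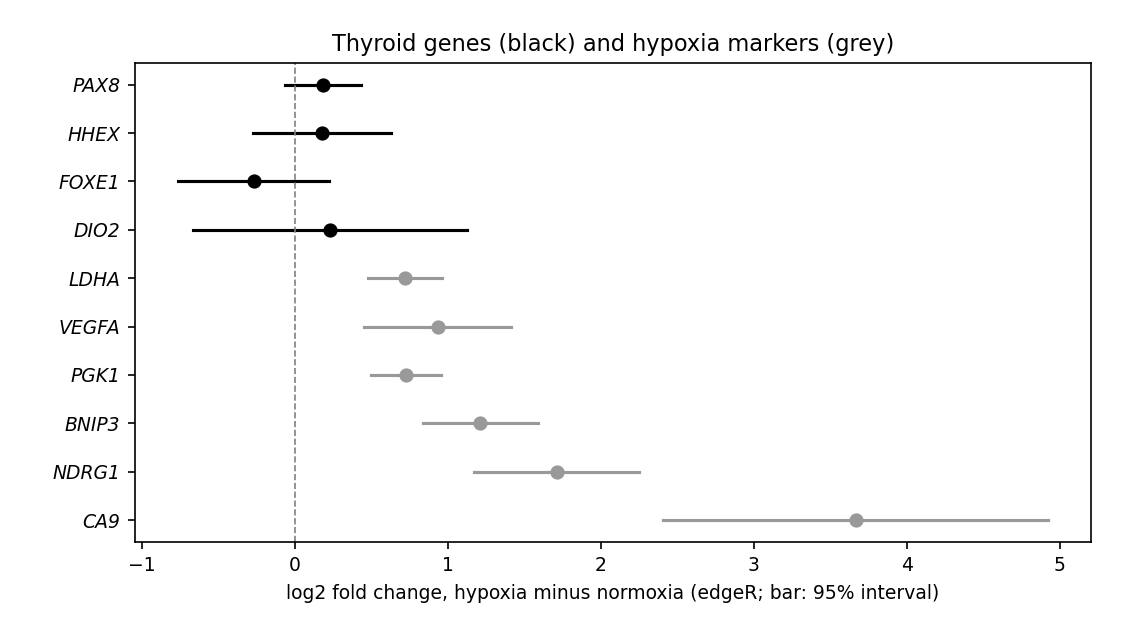
Log2 fold change of hypoxia minus normoxia (points) with 95% intervals (bars) for the 4 tested thyroid genes (black) and the 6 tested hypoxia markers (grey), n = 3 libraries per group. The intervals of PAX8, HHEX, FOXE1 and DIO2 all take in 0, and those of the hypoxia markers lie above it.

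The 9 genes stood in a wide order of level, compared here as normalized CPM per kilobase of transcript. PAX8 was at 33.1 (range over the 6 libraries 26.3 to 37.5), HHEX at 17.9 (12.9 to 22.4) and FOXE1 at 8.11 (5.62 to 10.8). NKX2-1 followed at 1.75 (1.00 to 2.46), DIO2 at 1.34 (0.598 to 2.35) and SLC5A5 at 0.571 (0 to 1.78). TG was at 0.216, TSHR at 0.203 and DUOX1 at 0.144. The library ranges of PAX8, HHEX, FOXE1 and NKX2-1 do not overlap from one to the next, whereas from NKX2-1 down each gene overlaps its neighbour. Among the 20288 rows, PAX8 was at percentile 92.4, HHEX at 85.3, FOXE1 at 71.9, NKX2-1 at 44.3 and DIO2 at 40.6, against 27.1 for SLC5A5, 9.85 for TG, 9.26 for TSHR and 6.57 for DUOX1. The methods state that fragments on non-coding parts of mRNAs were left out of the final analysis, and the table does not show whether that holds for its counts. Per kilobase of coding sequence, an alternative chosen after seeing the data, PAX8, HHEX and FOXE1 stayed first, at 101.8, 38.1 and 25.1, DIO2 at 10.4 passed NKX2-1 at 4.06, and TSHR at 0.405 passed TG at 0.220.

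**Figure D3:**
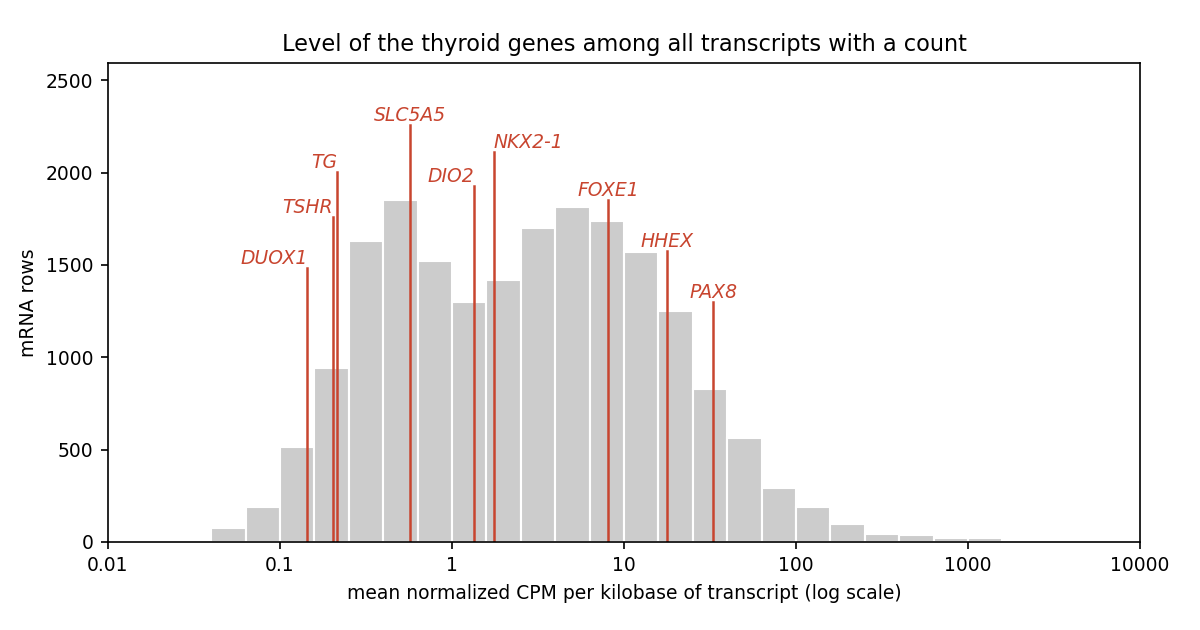
Number of protein-coding rows by mean normalized CPM per kilobase of transcript over the 6 libraries (log scale, 19624 rows with a count), with a red line at each of the 9 genes. PAX8 at 33.1, HHEX at 17.9 and FOXE1 at 8.11 lie in the upper hump of the distribution, and TG at 0.216, TSHR at 0.203 and DUOX1 at 0.144 lie in its lower tail.

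The 3 highest factors made up nearly all fragments of the group. PAX8, HHEX and FOXE1 together took 87.9% to 94.0% of the counts of the 9 genes in each library, out of 281 to 395 counts. The share of PAX8 was 62.3 ± 1.96% at 21% O2 and 65.3 ± 1.05% at 2% O2 (SD, n = 3 per group; two-sided exact permutation, p = 0.2), and that of FOXE1 14.7 ± 2.93% and 11.2 ± 1.96% (p = 0.2, exact). By library, 8, 9 and 8 of the genes were detected in normoxia and 9, 8 and 7 in hypoxia. The genes at 0 were DUOX1 in normoxia replicate 1, TG in normoxia replicate 3, SLC5A5 in hypoxia replicate 2, and both TSHR and DUOX1 in hypoxia replicate 3, where 0 counts allow up to 1.94, 1.90, 1.73 and 2.08 CPM in turn.

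Markers of cells that a culture of this line should not hold give a measure of how low the low genes are. Of 24 markers of C cells, parathyroid, endothelial and immune cells, with a median of 0.755 normalized CPM per kilobase, 0 were above PAX8, HHEX or FOXE1, 6 were above NKX2-1 and 8 above DIO2. The numbers were 13 for SLC5A5, 21 for TG, 22 for TSHR and 23 for DUOX1. Among the defining markers, calcitonin (CALCA) held 2, 0 and 0 counts in normoxia and 0 in each hypoxic library, parathyroid hormone (PTH) 0, 3 and 0 and then 0, and the T cell gene CD3D 0 in all. Other members of the same lists were higher, the receptor kinase RET with 11 to 50 counts per library (log2 fold change -0.90, edgeR adjusted p = 0.394), the calcium receptor CASR with 22 to 38, the endothelial cadherin CDH5 with 7 to 25, and the myeloid genes CD14 and CD68 with 8 to 24 and 8 to 23. The summed levels of these 4 lists overlapped between the groups, with 27.0 to 52.1 normalized CPM in normoxia and 21.5 to 30.0 in hypoxia for the 8 C cell markers, and 17.5 to 27.3 against 22.2 to 33.4 for the 7 immune markers. The sums were 15.5 to 24.8 and 13.8 to 15.9 for the 3 parathyroid markers, and 20.7 to 37.9 and 30.6 to 38.6 for the 6 endothelial ones. The 7 fibroblast markers were not among the 24. COL1A2 was at 108 normalized CPM per kilobase, above PAX8, and COL1A1 at 21.1, above HHEX and FOXE1. The list summed to 697 to 815 normalized CPM in normoxia and 727 to 808 in hypoxia. Its median was only 0.987 normalized CPM per kilobase, and 4 of its 7 members held under 10 counts in every library. The sum of the 7 epithelial markers did separate the groups, at 742 to 769 in normoxia and 846 to 926 in hypoxia, and its part in the values of the thyroid genes was not tested. Of these markers 5 were tested, with a median log2 fold change of 0.05, and edgeR called 0, against 0.758% of all transcripts tested. The groups did not overlap in 1 of the 5, where 15.3% of all transcripts tested did not. Of that list, the keratins KRT19 and KRT7 held 386 to 514 and 332 to 422 counts per library, KRT18 and KRT8 held 44 to 66 and 26 to 42, and the adhesion genes CDH1 and EPCAM 1 to 6 and 1 to 5. CLDN1, a tight junction gene, held 214 to 489 counts, with the hypoxic libraries above the normoxic ones (log2 fold change 0.52, edgeR adjusted p = 0.0705).

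The pattern of PAX8 across the 6 libraries was a small one, with a range of 0.51 on the log2 scale. By root mean square difference of centred log2 normalized CPM, the rows most like it among 5388 with a mean of at least 50 counts were SOD2, a mitochondrial superoxide dismutase (0.0351), KCTD10 (0.0412) and LZIC (0.0446), where the median row was at 0.240. SOD2, like PAX8, was lowest in normoxia replicate 2 and highest in hypoxia replicate 1. These rows were picked as the closest of 5388, so a close match can follow from the search itself. A link with PAX8 was not tested.

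Around these 9 genes, 110 rows of 4 further lists cover the rest of the pathway, and 75 of them were tested. None of the 75 was called by edgeR, DESeq2 (which gave no adjusted p for 27 of them) or limma-voom, where edgeR called 0.758% of all protein-coding transcripts, and 10 passed an unadjusted p under 0.05 (6 higher and 4 lower), or 13.3% against 10.3% of all transcripts tested. Their median log2 fold change was -0.01, with 36 of 75 above 0. The groups did not overlap in 14 of them, or 18.7% against 15.3%.

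Of the 21 other genes of hormone synthesis, 10 were tested and none was called by edgeR, with 0 at an unadjusted p under 0.05 and a median log2 fold change of -0.10. Those best known from the thyroid were low. DUOX2, the main thyroid oxidase, held 3, 5 and 1 counts in normoxia and 2, 4 and 10 in hypoxia. The maturation factors of the oxidases, DUOXA1 and DUOXA2, held 0 to 3 and 1 to 3 counts per library. SLC26A4 (pendrin), which passes iodide to the lumen, held 11, 5 and 5 counts and then 12, 9 and 4. IYD, which recovers iodide, was tested on 12, 10 and 10 and then 15, 6 and 6 counts (log2 fold change -0.28, edgeR adjusted p = 0.889). The high members of the list were general genes of protein folding and redox balance, HSPA5 at 747 normalized CPM over the 6 libraries with a log2 fold change of -0.12, TXNRD1 at 696 with -0.20 and CANX at 623 with 0.09, none of which passed the test.

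Of 23 partners and relatives of the factors, 13 were tested and none was called by edgeR. At an unadjusted p under 0.05 from edgeR, 3 were higher and 2 lower, where 10.3% of all transcripts tested passed. The groups did not overlap in 5 of the 13, where 15.3% of all transcripts tested did not. NKX2-2, a homeobox relative of NKX2-1 known from brain and pancreas, had the largest fold change, on 7, 13 and 23 counts in normoxia and 29, 48 and 20 in hypoxia. Its groups overlapped and its log2 fold change was 1.12 (standard error 0.346, edgeR adjusted p = 0.144), and without normoxia replicate 3 it was 1.62 (adjusted p = 0.0494 from edgeR). For WWTR1, a Hippo pathway coactivator that partners PAX8 and NKX2-1, the log2 fold change was -0.25 (edgeR adjusted p = 0.358), for PARP1, a poly(ADP-ribose) polymerase, it was -0.33 (adjusted p = 0.300), and the hypoxic libraries lay below the normoxic ones in both. SOX9, a factor of progenitor cells, was at 0.25 (adjusted p = 0.374 from edgeR) with the hypoxic libraries above, and TLE4, a corepressor, at 0.10. The closest relatives of PAX8 were low, PAX2 with 2 to 12 counts per library and PAX5 with 4 to 9.

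Of 29 genes of TSH receptor signalling, 24 were tested and none was called by edgeR, with a median of 0.07. At an unadjusted p under 0.05 from edgeR, 0 were higher and 2 lower, where 10.3% of all transcripts tested passed. The groups did not overlap in 5 of the 24, where 15.3% of all transcripts tested did not. GNAS, the G protein subunit that couples the receptor to cyclic AMP, was abundant, with 2041, 1780 and 1901 counts in normoxia and 1826, 1754 and 1588 in hypoxia. Its hypoxic libraries lay below the normoxic ones as normalized CPM (log2 fold change -0.18, standard error 0.0929, edgeR adjusted p = 0.494). PRKACA, a catalytic subunit of protein kinase A, held 121, 133 and 129 counts and then 115, 108 and 73, with -0.42 (standard error 0.152, edgeR adjusted p = 0.245), and the regulatory subunits PRKAR2A and PRKAR1A had -0.25 (adjusted p = 0.411) and -0.19. GNAQ, the subunit that couples to calcium release, was at 0.03. Other members were lower, the adenylate cyclases ADCY9, ADCY3 and ADCY6 with 21 to 48, 22 to 37 and 16 to 34 counts per library and the arrestin ARRB1 with 0 to 7, beside 0 to 3 for TSHR.

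Of 37 genes of hormone transport, deiodination and nuclear action, 28 were tested and none was called by edgeR, with a median of -0.02. At an unadjusted p under 0.05 from edgeR, 3 were higher and 0 lower, where 10.3% of all transcripts passed that threshold. The groups did not overlap in 3 of the 28, where 15.3% of all transcripts tested did not. SLC7A5, the light chain of an amino acid exchanger that also carries thyroid hormone, held 25, 27 and 32 counts in normoxia and 58, 52 and 41 in hypoxia, so that all hypoxic libraries were above the normoxic ones (log2 fold change 0.80, standard error 0.237, edgeR adjusted p = 0.117). SLC3A2, its heavy chain, held 30, 31 and 44 and then 66, 76 and 36, with 0.71 (standard error 0.235, edgeR adjusted p = 0.181). SLCO4A1, an organic anion transporter, held 12, 9 and 10 and then 16, 31 and 20, with 1.06 (standard error 0.365, edgeR adjusted p = 0.204).

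The thyroid hormone receptors THRB and THRA gave 42 to 124 counts per library, and their partners RXRA, RXRB and RXRG gave 11 to 19, 4 to 18 and 0 to 3. THRB held 111, 117 and 113 counts in normoxia and 119, 124 and 100 in hypoxia (log2 fold change -0.03, edgeR adjusted p = 0.972), and THRA 69, 42 and 63 and then 54, 52 and 56, with -0.14 (adjusted p = 0.879). WSB1, which marks DIO2 protein for degradation, had 122 to 161 counts per library (log2 fold change 0.09, edgeR adjusted p = 0.876). The other deiodinases were at or near 0, with no count for DIO1 in any library and 0 to 3 for DIO3. The most abundant members were the corepressor genes TBL1XR1 (log2 fold change of -0.05) and NCOR1 (-0.14) and KLF9, a target of the hormone receptors (-0.01).

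**Figure D4:**
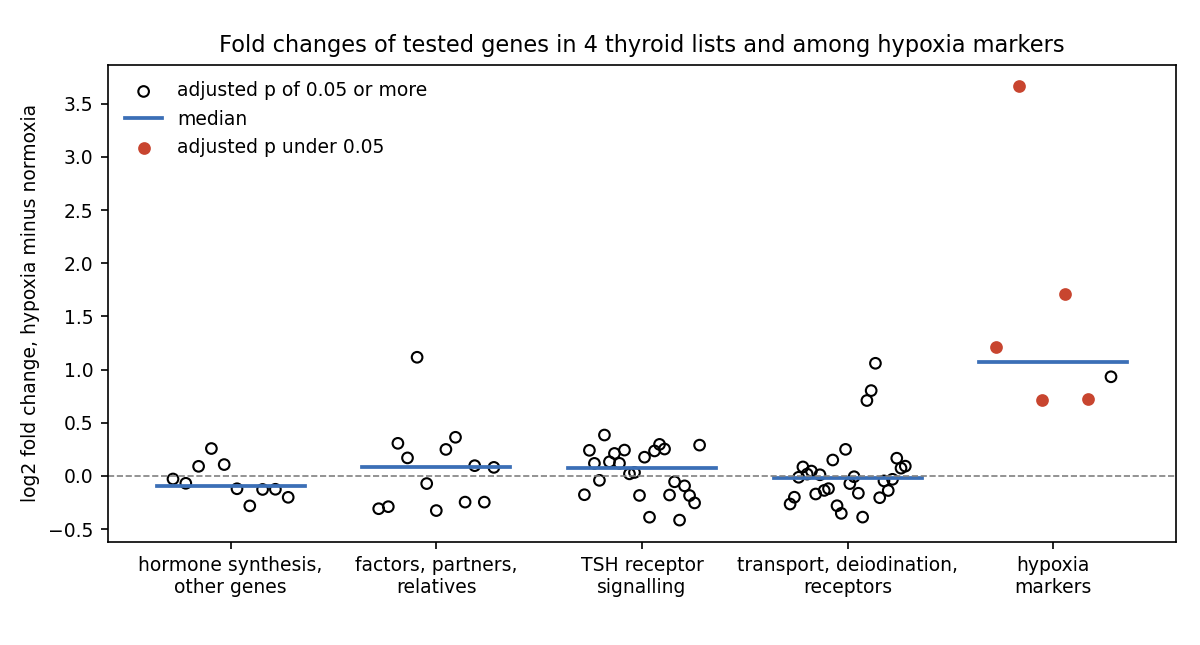
Log2 fold change of hypoxia minus normoxia for each tested gene of the 4 further thyroid lists (10, 13, 24 and 28 genes) and of the hypoxia markers (6 genes), with filled red points for an adjusted p under 0.05 from edgeR and a blue bar at each median. All filled points are hypoxia markers, and the medians of the thyroid lists lie between -0.10 and 0.08 against 1.07 for the hypoxia markers.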

How the data were processed

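Small RNA libraries of SW1736 cells (3 in normoxia and 3 in hypoxia) were made by the authors from total RNA with CATS, a method that tails RNA instead of ligating adapters. The reads were trimmed, those of housekeeping small RNAs set aside, and the rest aligned to miRBase 22 and GENCODE 28 transcripts, and the submitters' processing notes name FastQC, Bowtie and Bowtie2 with hg38. The deposited values are the authors' raw read counts per transcript, extracted with eXpress, with 1 transcript per gene. The library totals and the CPM that 3 counts are worth are given in the report.

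The miRNA and protein-coding tables were joined here, filtered with filterByExpr (minimum count of 10), normalized with TMM factors and compared between the groups by the quasi-likelihood test of edgeR 4.0.16 (robust prior) in R 4.3.3, with Benjamini-Hochberg adjustment over 11276 features (194 of them miRNAs). Two-sided permutation tests were exact, with 0.1 the smallest p possible. Genes under the filter were compared by summed counts with a 95% Clopper-Pearson interval, which treats reads as independent and leaves out the spread between libraries. As PCR reads are not independent molecules, this interval may be too narrow even for counting error. Detected means at least 1 count. Alternatives used DESeq2 1.42.0, limma 3.58.1 (voom), other scalings, no filter, the protein-coding table alone, a replicate block and each library left out. The fit was tested on simulated data. Same-numbered libraries did not deviate together (correlations of -0.00634, 0.00451 and -0.0906), so the numbers were not taken to pair them.

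The genes, lists and tests were chosen with earlier results of these data known. Of each further list the text names the genes called, up to 4 with the lowest unadjusted p under 0.05, the 3 with the highest mean normalized CPM and some close relatives of the 9 genes, not all of which are reported here. Coordinates are those of GENCODE 44 on GRCh38.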

Additional observations from a re-analysis of the deposited data

How the results depend on the processing

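None of the 4 tested thyroid genes was called under any of the 14 alternatives to the fit, in which the adjusted p was 0.533 to 0.907 for PAX8, 0.756 to 0.994 for HHEX, 0.489 to 0.945 for FOXE1 and 0.616 to 0.976 for DIO2, except that DESeq2 gave no adjusted p for FOXE1 and DIO2. The log2 fold change kept its sign for PAX8 (0.08 to 0.26), HHEX (0.02 to 0.36) and FOXE1 (-0.49 to -0.11). With 1 library left out, that of DIO2 ran from -0.35 (without hypoxia replicate 2) to 0.84 (without normoxia replicate 2), and it was -0.11 without normoxia replicate 3. Among the list genes, GNAQ ran from -0.039 to 0.083 with 1 library left out (below 0 without normoxia replicate 1, and at -0.0020 without hypoxia replicate 3). KLF9 ran from -0.14 to 0.13 (above 0 without normoxia replicate 2 and, at 0.049, without hypoxia replicate 1) and was 0.000329 by limma-voom, and THRA ran from -0.32 to 0.014 (above 0 without normoxia replicate 1). NKX2-2 was called without normoxia replicate 3 (1.62, edgeR). With no filter, 5 more of the 9 genes entered the fit and the log2 fold change was 1.58 for TG and -1.45 for SLC5A5 (standard errors 0.958 and 0.896, edgeR adjusted p = 0.760 for both).

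Over all protein-coding transcripts, DESeq2 called 38 higher and 8 lower, limma-voom 11 lower, and edgeR with no filter 44 lower. With 1 library left out the number higher ran from 26 (without hypoxia replicate 2) to 80 (without normoxia replicate 2), and was 35 without normoxia replicate 1. The number lower ran from 3 (without hypoxia replicate 2) to 39 (without normoxia replicate 2), with 10 when normoxia replicate 1 was left out and 11 when normoxia replicate 3 or hypoxia replicate 1 was. With the replicate number as a block edgeR called 60 higher and 14 lower, and the log2 fold changes of PAX8, HHEX, FOXE1 and DIO2 were 0.19, 0.18, -0.26 and 0.21. The block changed no call of a thyroid gene. A fit without the robust prior, chosen after seeing the data, called 66 higher and 16 lower, with VEGFA among the higher (adjusted p = 3.67e-04 from edgeR). The cause of these changes was not tested. Depth limits the low genes most, since DUOX1, TSHR, TG and SLC5A5 rest on 8, 9, 17 and 19 counts over 6 libraries.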
